A study of Mus musculus with 9 samples.

Results

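The 10 genes whose symbol begins with Zfp were followed in the mouse macrophage line RAW264.7 after transfection with let-7c-5p mimic, an RNA that imitates this mature microRNA, or with a negative control. They were chosen by name from a deposited table of 311 genes and are Zfp51, Zfp65, Zfp81, Zfp268, Zfp458, Zfp551, Zfp619, Zfp763, Zfp825 and Zfp867. The labels put 4 libraries in the control group and 5 in the let-7c-5p group and call them biological replicates. All 9 libraries come from the same cell line, and the labels used here name no genetic modification of it. They state neither the dose of the mimic nor the time after transfection nor what the negative control was. The study asked how let-7c-5p affects macrophage polarization.

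Most Zfp genes encode proteins with tandem C2H2 zinc fingers, small folds in which 2 cysteines and 2 histidines hold a zinc ion. Each finger can contact a few bases of DNA. Many of these proteins also carry a KRAB domain near their start. KRAB zinc finger proteins bind DNA, often inside transposable elements, and recruit the corepressor TRIM28, which brings in the histone methyltransferase SETDB1 and silences chromatin. Many of the genes lie in clusters that grew by duplication, so neighbouring members often resemble each other. A microRNA such as let-7c-5p lowers mRNAs mainly by pairing of its seed, bases 2 to 8, with sites in their 3′ untranslated regions (UTRs).

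The table limits what can be said of these genes. In all 311 genes the mean count of the mimic group lay at least 0.98 on the log2 scale from that of the control, so the genes had been picked for their change in these same libraries. The direction of a Zfp gene was free, but its size was not. Counts and fold changes of the members are therefore descriptions, and no p-value is given for them. The member nearest to that limit was Zfp825, with a log2 ratio of mean deposited counts of -1.01. The column totals of 40655 to 83053 counts are sums over the selected genes, not sequencing depths. None of 16 macrophage markers was in the table, so the cell type could not be checked. Of 25 markers of other cell types 1 was present, the endothelial gene Vwf.

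The sequence of the transfected microRNA is shown first because the members' transcripts were searched for its seed match. The mature let-7c-5p of RefSeq, identical at both mouse loci of GRCm38.p6, has its seed in capitals.
let-7c-5p: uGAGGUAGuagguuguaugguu

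None of the 10 members held a 7-base match to the whole seed, CTACCTC, or the 8-base match CTACCTCA, in the 3′ UTR or in the coding sequence of the GENCODE M21 transcript used. These UTRs were 117 to 4901 bases long. The TACCTCA match, 6 seed bases followed by A, was also found in 0 members. Among 394 Zfp-named genes with a coding sequence in that annotation, 10.7% held CTACCTC in the 3′ UTR and 9.14% in the coding sequence. Among all 21901 coding genes these shares were 7.51% and 12.8%. The shorter match TACCTC, to bases 2 to 7 of the microRNA, occurred in 5 of the 10 members, against 44.2% of all Zfp-named genes. The 6 places are shown with that match in capitals, since they are the longest matches found among the forms searched in the transcripts used. Other 6-base parts of the seed were not searched.
Zfp51, coding: gaaatgcttcaaTACCTCctcaag
Zfp81, coding: ttaataagtacaTACCTCccggaa
Zfp619, coding: aggggattcagtTACCTCcgcgtc
Zfp763, coding: agacactattcaTACCTCcagaaa
Zfp65, 3′ UTR: agggttgtccaaTACCTCtcctgg
Zfp763, 3′ UTR: atcccccaaattTACCTCtgaatt

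In each of these places the base before the match differs from the C that would complete the 7-base match, and the base after it is not A. Of the listed places, 4 lay in coding sequence and 2 in a 3′ UTR. A match of letters is a description and does not show that the microRNA bound there.

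The predicted proteins of the 10 members were all of the tandem zinc finger type. The translated coding sequences of GENCODE M21 held between 6 C2H2 motifs (Zfp825) and 33 (Zfp619), with a median of 13 per member and of 10 over all Zfp-named genes. The motif was written as 2 cysteines spaced by 2 to 4 residues, then 12 residues, then 2 histidines spaced by 3 to 5. All 10 members also matched a short KRAB signature, which was present in 44.4% of Zfp-named genes and in 1.14% of all coding genes. The signature was aspartate and valine, 3 residues, phenylalanine or leucine, 2 residues, then glutamate, glutamine or glycine, glutamate and tryptophan. It had been widened after a narrower version matched fewer of the members, so the count of 10 is a description. The predicted lengths ran from 292 residues in Zfp825 to 1161 in Zfp619.

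The repeat structure is visible in the DNA. The stretch that links one finger to the next is strongly conserved in this family, and its core GGAGAGAA (searched on the coding strand) occurred 74 times in the coding sequences of the 10 members. Of 64 distances between consecutive copies within a gene, 41 were exactly 84 bases and 61 were a multiple of 84 bases, the length of 1 finger with its linker. At least 3 copies were found in 9 of the 10 members, Zfp551 with 2 copies being the exception, and in 1.20% of all coding genes. Zfp268 had 20 copies. For each of 3 members the first stretch with copies 84 bases apart is shown, with the linker core in capitals.
Zfp268: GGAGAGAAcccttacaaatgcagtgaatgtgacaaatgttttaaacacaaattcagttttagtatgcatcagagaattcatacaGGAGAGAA
Zfp763: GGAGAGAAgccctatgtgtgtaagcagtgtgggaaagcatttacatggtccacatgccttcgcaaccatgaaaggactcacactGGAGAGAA
Zfp81: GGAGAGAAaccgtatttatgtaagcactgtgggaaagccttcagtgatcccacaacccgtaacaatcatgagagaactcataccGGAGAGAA

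Such repeats matter for the counts, because reads from one member can match another gene. The coding transcript of each member was aligned with all GENCODE M21 transcripts, and stretches of at least 150 bases with at least 95% identity to another gene were summed. For 7 members there was no such stretch. In Zfp825 the stretches covered 66.3% of the transcript, in Zfp268 25.6% and in Zfp51 9.91%. The closest relatives by length of match were Gm15443 for Zfp825 (95.4% over 818 bases), Zfp985 for Zfp268 (96.9% over 481 bases) and Gm10226 for Zfp51 (97.3% over 255 bases). The sources used here do not say how reads with several matches were counted, so the counts of these 3 members are uncertain. Gm46430, whose transcript aligned with that of Zfp825 at 87.0% identity over 1193 bases, was itself in the table and was lower, with 43.5 ± 8.96 counts in the control (SD, n = 4) and 21.4 ± 9.04 with the mimic (SD, n = 5). Annotated genes overlapped Zfp65 and, on the opposite strand, Zfp268, and the strand setting of the counting is likewise not stated.

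All 10 members had a lower mean count with let-7c-5p than with the control, as did 141 of the 311 genes of the table (45.3%). Of the members, 6 passed the filter on low counts and were tested with the other genes, namely Zfp867, Zfp51, Zfp825, Zfp81, Zfp65 and Zfp763. All 6 were called lower by edgeR's quasi-likelihood test at an adjusted p under 0.05, but 148 of the 149 tested genes were called in one direction or the other (99.3%), 72 of them lower (48.3%). A count of members called is therefore no result about the members. A gene that passed the filter only through its higher group had to differ, so the 6 do not stand for the 10. The log2 fold changes of the 6, let-7c-5p minus control, ran from -1.46 to -1.10 with a median of -1.22. The median was 0.93 over all tested genes and -1.20 over the 72 lower ones. In these bulk libraries, less RNA per cell and fewer cells with the RNA cannot be told apart.

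**Figure D1:**
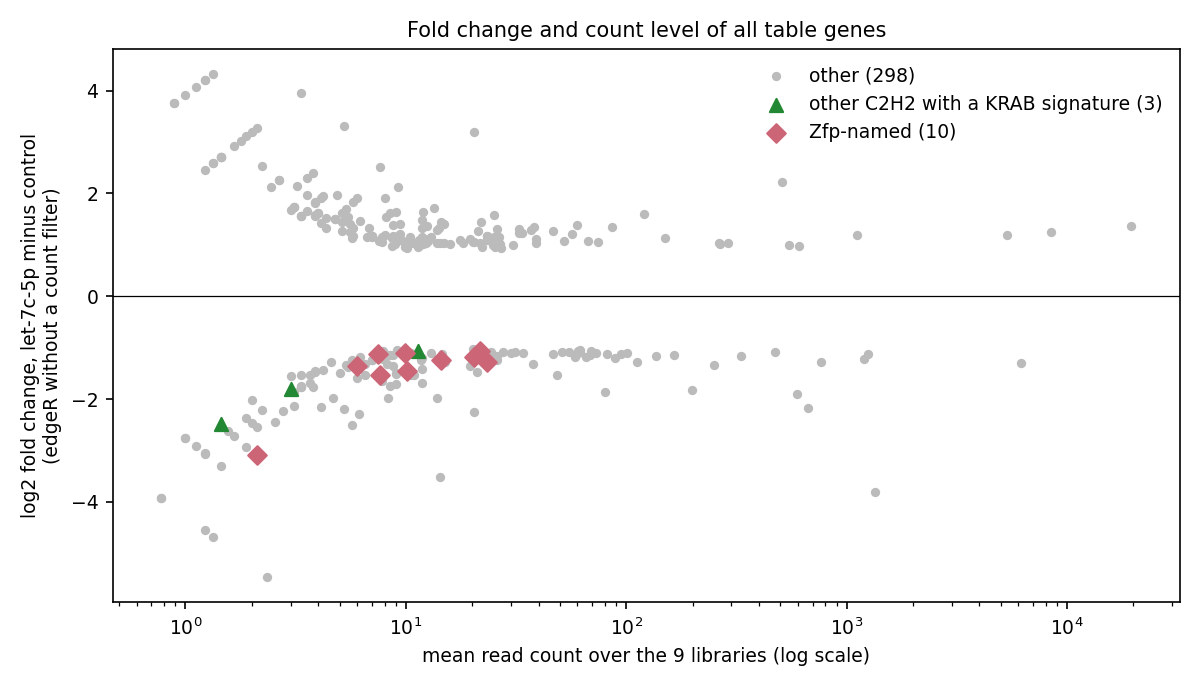
Log2 fold change of each of the 311 genes (vertical axis, let-7c-5p minus control, edgeR without a count filter) against its mean read count over the 9 libraries (horizontal axis, log scale), with the 10 Zfp-named genes as diamonds and 3 further C2H2 genes with a KRAB signature as triangles. All 13 lie below 0, between mean counts of 1.44 and 23.2, and the band around 0 is empty because the table holds selected genes.

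The members had low counts, as had most of the table. Their means over the 9 libraries ran from 2.11 counts in Zfp268 to 23.2 in Zfp867, with a median of 10.0 against 9 over all 311 genes. Per kilobase of the longest transcript, the mean control count was highest in Zfp825 (19.5 per kb). This value is uncertain because of the shared sequence named above, whose part in it was not tested. It was 10.0 per kb in Zfp867, 6.02 in Zfp51, 5.31 in Zfp65 and 4.41 in Zfp81. It lay at 4.11 per kb in Zfp763 and 4.05 in Zfp551. The lowest control levels were 2.01 per kb in Zfp619, 1.95 in Zfp458 and 1.18 in Zfp268. Neighbours such as Zfp763 and Zfp551, or Zfp619 and Zfp458, lay closer than the spread between control libraries.

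Zfp867, a KRAB zinc finger gene with 10 C2H2 motifs, was the member with the most counts. It had 25, 30, 42 and 40 counts in control replicates 1 to 4, and 14, 18, 13, 19 and 8 in let-7c-5p replicates 1 to 5. Each mimic library lay below each control library. Its mean went from 34.3 ± 8.10 (SD, n = 4) to 14.4 ± 4.39 (SD, n = 5), a log2 fold change of -1.31 ± 0.26 (SE).

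Zfp81, with 11 motifs, had 14, 30, 31 and 42 counts in the control libraries and 22, 17, 10, 16 and 1 in the mimic libraries. The groups overlapped, since control replicate 1 lay below 3 of the mimic libraries. The single count in let-7c-5p replicate 5 was the lowest value of the gene. Its mean was 29.3 ± 11.5 in the control and 13.2 ± 8.04 with the mimic, a log2 fold change of -1.20 ± 0.40.

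Zfp825, with 6 motifs the shortest protein of the group, had 22, 33, 37 and 29 counts in the control and 28, 14, 7, 16 and 10 with the mimic. Replicate 1 of the mimic lay within the control range and the other mimic libraries below it. The mean went from 30.3 ± 6.40 to 15.0 ± 8.06, a log2 fold change of -1.10 ± 0.32.

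Zfp65, with 9 motifs, showed a like pattern. Its counts were 11, 18, 29 and 26 in the control and 20, 9, 9, 6 and 2 with the mimic, so that again only let-7c-5p replicate 1 reached the control range. The mean went from 21 ± 8.12 to 9.20 ± 6.69, a log2 fold change of -1.24 ± 0.40.

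Zfp51, with 19 motifs, had 11, 18, 13 and 20 counts in the control libraries against 11, 7, 5, 3 and 3 in the mimic libraries, with a tie at 11 between the 2 replicates numbered 1. Its log2 fold change of -1.46 ± 0.35 was the lowest of the 6 tested members. Zfp763, with 13 motifs, had 10, 15, 12 and 19 counts in the control and 8, 7, 6, 10 and 2 with the mimic, a log2 fold change of -1.13 ± 0.32. Here the tie at 10 was between control replicate 1 and let-7c-5p replicate 4.

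The other 4 members were below the count filter and were not tested. Zfp619, with 33 motifs the longest of the proteins, had 9, 16, 14 and 9 counts in the control and 4, 6, 3, 5 and 3 with the mimic, with no overlap. Its mean went from 12 ± 3.56 to 4.20 ± 1.30, and the fit without the filter gave a log2 fold change of -1.53 ± 0.40. Zfp551, with 13 motifs, had 11, 12, 11 and 8 counts against 8, 7, 2, 7 and 1, with a tie at 8 between control replicate 4 and let-7c-5p replicate 1. Its log2 fold change in that fit was -1.11 ± 0.44. Zfp458, with 20 motifs, had 8, 8, 7 and 13 counts against 9, 4, 0, 3 and 2, and again let-7c-5p replicate 1 lay within the control range. Its log2 fold change in that fit was -1.36 ± 0.50. RefSeq gives Zfp458 the older name Rslcan-7, and it lies in a cluster of such genes on chromosome 13.

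Zfp268 had very few reads, 1, 10, 1 and 5 counts in the control and 1, 0, 0, 1 and 0 with the mimic. Of its 17 control counts, 10 came from replicate 2. The scaled ratio of the summed counts was 11.0-fold lower with the mimic (95% exact interval 2.61 to 98.2, which covers counting error only), a range too wide to rank it among the members.

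**Figure D2:**
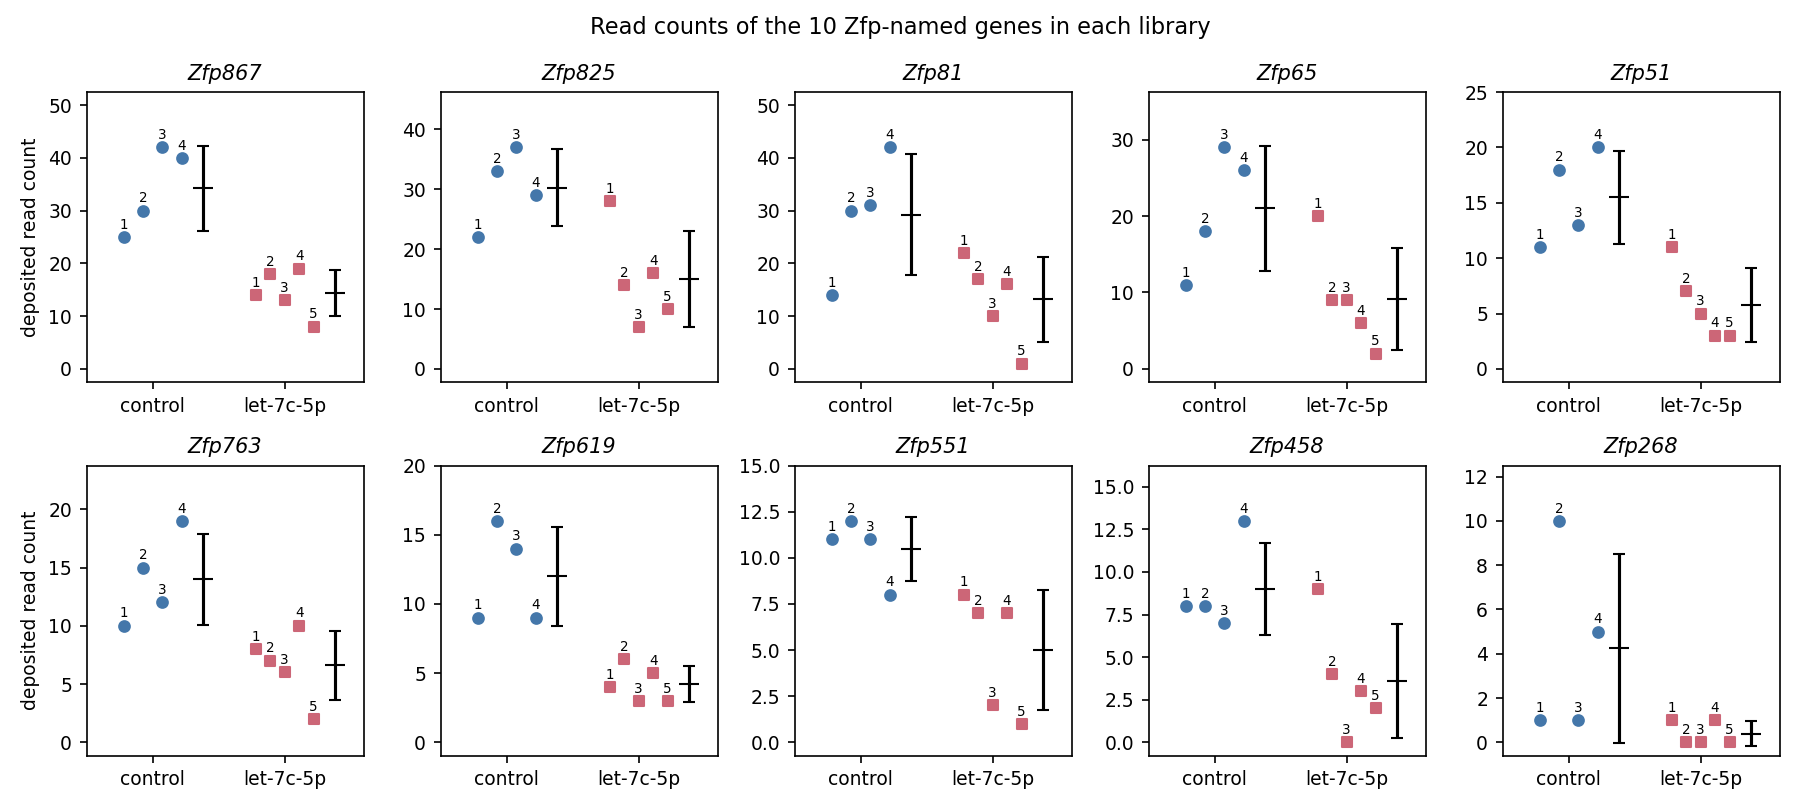
Deposited read counts (vertical axis) of each of the 10 genes in 4 control libraries (circles) and 5 let-7c-5p libraries (squares), with replicate numbers above the points and mean ± SD as black bars beside them. The groups are separate in Zfp867 and Zfp619 and touch or overlap in the other 8 genes.

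As deposited, the counts of 2 of the 10 members, Zfp867 and Zfp619, separated the groups without overlap. Over the whole table, the mimic libraries all lay below the control libraries in 60 of 311 genes (19.3%), which are 42.6% of the 141 genes with a lower mean. Among the 61 lower genes with a mean of 5 to under 25 counts, where 9 of the members lie, this held for 24 (39.3%), and for 2 of those 9 members. The members' shares lay below these shares among lower genes. TMM scaling is meant to correct for differences in library composition when most genes do not change. All genes here were selected for their change, so that condition is not met. After TMM scaling there was no overlap in 5 members (Zfp867, Zfp51, Zfp619, Zfp268 and Zfp763), against 92 of 311 genes in the table (29.6%). The 92 genes are 65.2% of those with a lower mean. Since all 10 members had a lower mean, the shares among lower genes are the ones to compare, and the differences were not tested.

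The summed counts of the 10 genes gave a level for the family in each library. The sums were 122, 190, 197 and 211 counts in control replicates 1 to 4 and 125, 89, 55, 86 and 32 in let-7c-5p replicates 1 to 5. In these unscaled counts the groups overlapped, with control replicate 1 at 122 below let-7c-5p replicate 1 at 125. Scaled to the effective library size from TMM, as CPM (counts scaled to 1 common library size), the sums were 3036, 3997, 3754 and 3025 in the control. They were 2103, 1628, 1093, 1376 and 713 CPM with the mimic. Each mimic library then lay below each control library. The mean went from 3453 ± 498 (SD, n = 4) to 1383 ± 527 (SD, n = 5) CPM, a log2 ratio of -1.32 or 2.50-fold lower. Leaving out Zfp867, the gene with the most counts, gave -1.32 as well.

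The size of this difference depended on the scaling, and every denominator was a sum or factor over the selected genes. With column totals the ratio was -1.59, with DESeq2 size factors -1.54, and with the counts as deposited -1.22. The table was dominated by 4 genes that each held over 10% of a library, Gm10123, Rpl17, Tnf and Gpnmb. With column totals that left these 4 genes out, the log2 ratio was -0.74, 1.67-fold lower, and the groups overlapped, let-7c-5p replicate 1 at 9095 CPM lying above control replicate 1 at 8036. Under that scaling 2 of the 6 tested members were called lower, as were 37 of the 149 tested genes (24.8%). No member had a higher estimate under any of the scalings, but that scaling moved the median over the 149 tested genes by 0.55 (log2) and column totals moved it by -0.35.

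**Figure D3:**
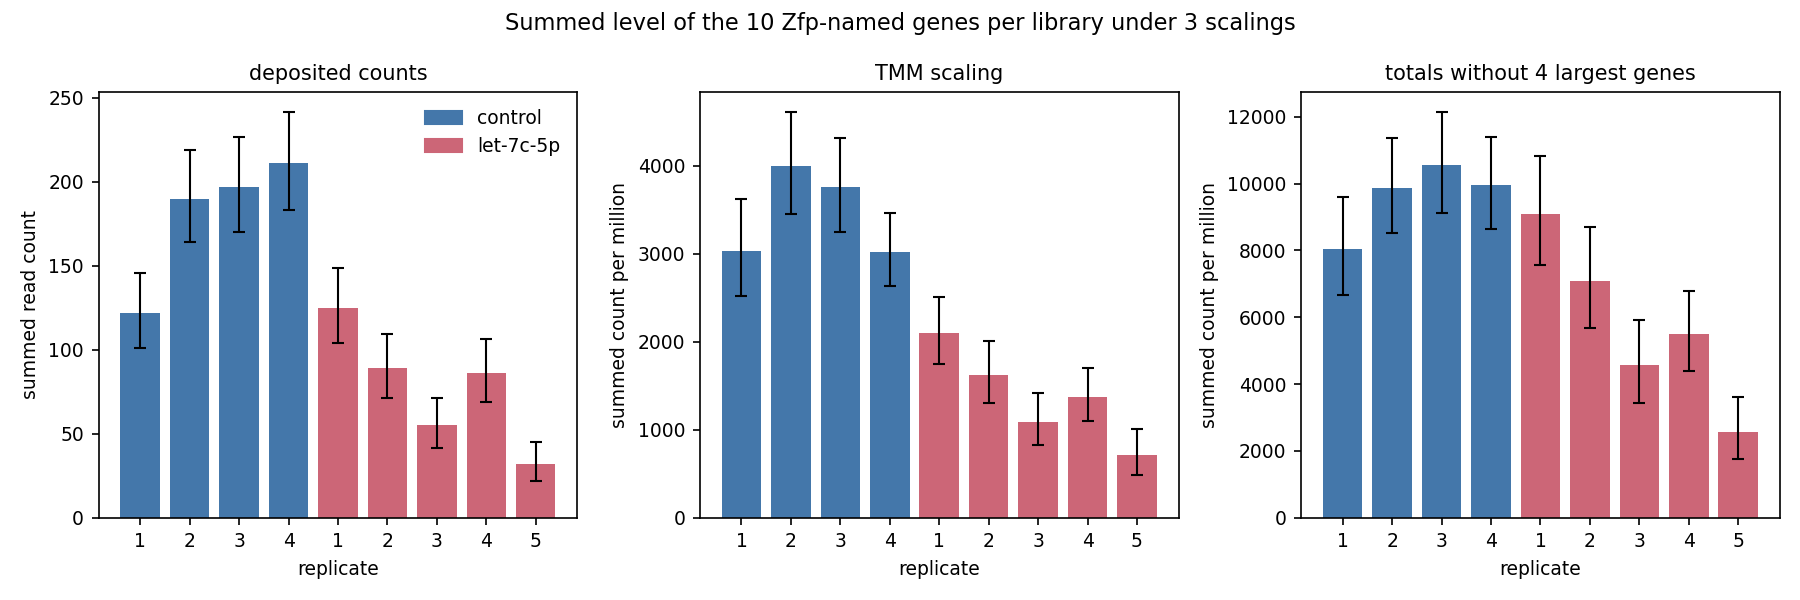
Summed level of the 10 Zfp-named genes in each library, as deposited counts (left), CPM after TMM scaling (middle) and CPM of column totals without the 4 largest genes (right); error bars are 95% exact Poisson intervals and cover counting error only. The 5 let-7c-5p libraries lie below the 4 control libraries in the middle panel, and let-7c-5p replicate 1 overlaps the control in the other panels.

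The let-7c-5p libraries differed in the level of the members. After TMM scaling the highest mimic library, replicate 1, was 2.95-fold above the lowest, replicate 5, whereas the control libraries differed by up to 1.32-fold. On the same scale the 95% Poisson interval was 1750 to 2506 CPM in replicate 1 and 488 to 1007 CPM in replicate 5, which covers counting error only. In the deposited counts replicate 5 was the lowest mimic library, alone or tied, in 8 of the 10 members, and replicate 1 was the highest in 7. The same held for 59.4% and 50% of the 64 other tested lower genes, those without 3 or more C2H2 motifs. After TMM scaling replicate 5 was lowest in 6 members and replicate 1 highest in 7, against 45.3% and 48.4% of these other genes. In the control, replicate 1 was lowest or tied in 8 of the 10 members as deposited and in 71.9% of the other genes. After TMM scaling it was lowest in 2 members and in 35.9% of the other genes. The order of the libraries was thus shared in part with the other lower genes, and no difference between these shares was tested. The low deposited sum of control replicate 1 accompanied the smallest column total, 40655 counts.

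The 64 other tested lower genes had median deviations of the same sign and smaller size in these libraries. Their median deviation from the group mean, on the log2 scale of TMM-scaled CPM plus 1, was 0.26 in let-7c-5p replicate 1 and -0.27 in replicate 5. In the 6 tested members it was 0.94 and -0.89. Replicate 5 was below the group mean in all 6 of these members and in 42 of the 64 other genes. In the 77 other tested higher genes the median deviations were -0.15 in replicate 1 and 0.24 in replicate 5. The sign in replicate 5 depended on the scaling in these higher genes, with -0.46 under column totals and -0.02 under equal library sizes. In the 6 tested members replicate 5 was negative under each of the 5 scalings, from -1.58 to -0.89. The tested members had mean counts of 9.89 to 23.2, against a median of 35.9 in the tested lower genes that are not members. The part of count level in the larger deviations was not tested.

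Between pairs of the 6 tested members, the deviations of the 9 libraries from their group means had a median Pearson r of 0.46, and 14 of 15 pairs were positive. Among pairs of the 64 other lower genes the median was 0.15 and 59.5% were positive. With column totals the medians were 0.75 and 0.55, so the level of these correlations depended on the scaling, which all genes of a library share. They are given as a description over 9 libraries of sparse counts.

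**Figure D4:**
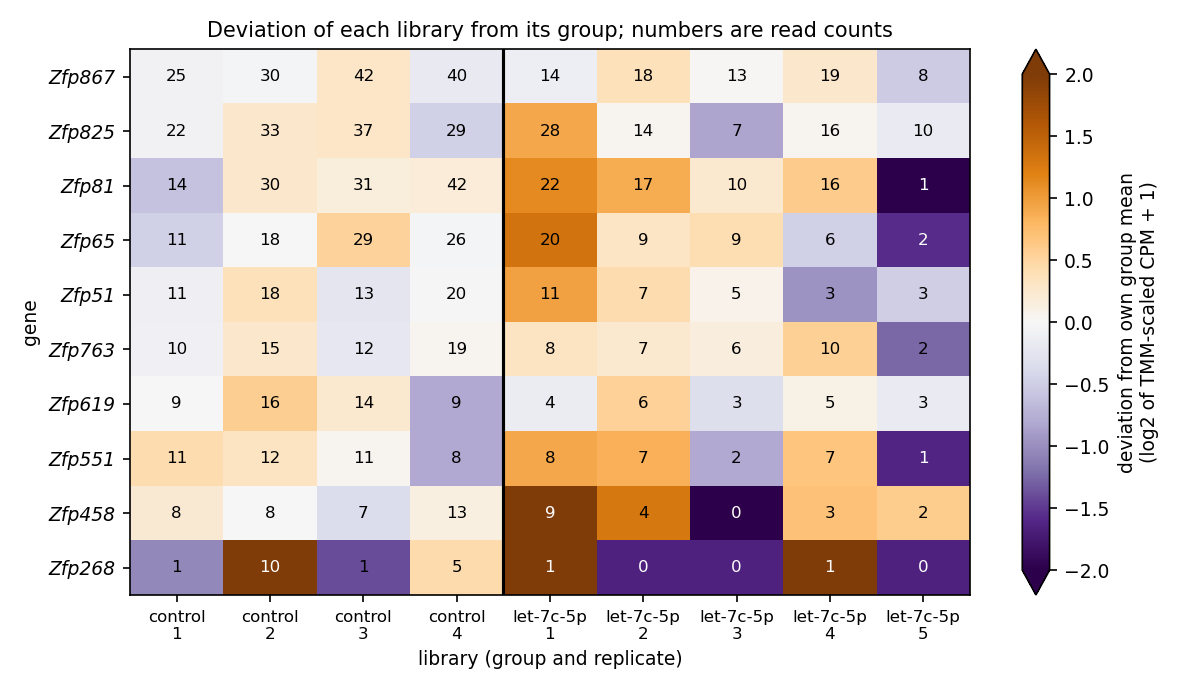
Deviation of each library from the mean of its own group (colour, log2 of TMM-scaled CPM plus 1) for the 10 genes (rows) in 9 libraries (columns), with the deposited read count written in each cell. Let-7c-5p replicate 5 is below its group mean in all genes but Zfp458, and let-7c-5p replicate 1 is above it in all but Zfp867 and Zfp619.

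Library composition also differed between the mimic libraries. Gm10123 held 59.5% of the counts in let-7c-5p replicate 1 and 59.6% in replicate 5, the mimic libraries with the highest and the lowest Zfp sums, and 21.9% to 37.2% in the other mimic libraries. A high Gm10123 share thus stood beside both extremes. Replicate 5 had the largest column total, 83053 counts, and the smallest TMM factor, 0.546. The part of these differences in the result was not tested. With control replicate 1 and the mimic's replicate 5 both left out, which was decided once the data had been seen, the log2 ratio of the summed level was -1.21. All 6 tested members were then called lower, but 158 of the 164 genes tested there were called in either direction (96.3%), 81 of them lower (49.4%).

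The non-member genes whose deviations were most like those of the summed Zfp level were Fam135a, Ythdc2 and 2010016I18Rik, with r of 0.97, 0.94 and 0.94 over the 9 libraries. They ranked first among 48 tested genes averaging 50 or more counts and were chosen for this likeness. Fam135a had 77, 41, 25, 50 and 11 counts in let-7c-5p replicates 1 to 5, again with replicate 1 highest and replicate 5 lowest, and 58, 81, 96 and 102 in the control. Ythdc2, an RNA helicase with a YTH domain, had 83, 56, 43, 66 and 26 counts with the mimic and 71, 108, 126 and 158 in the control. The third, 2010016I18Rik, had 109, 67, 53, 59 and 30 counts with the mimic and 87, 139, 154 and 157 in the control. All 3 had more counts than any member, and in each the highest and the lowest mimic library were those of the summed Zfp level.

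Members were also compared with zinc finger genes that carry other names. Of the 191 table genes with a coding sequence in GENCODE M21, 14 had at least 3 C2H2 motifs, the 10 members and Gm4767, Gm14139, Gm17655 and Egr1. All 14 had a lower mean with the mimic. The first 3 had 13 to 17 motifs and also matched the KRAB signature, which Egr1, an immediate early transcription factor with 3 motifs, did not.

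Gm4767, the one of the 3 Gm-named genes with the most counts, had 9, 21, 19 and 14 counts in the control and 14, 12, 6, 3 and 4 with the mimic, with overlap. Its transcript was matched over its whole length by Gm10778 (99.9% identity) and shared near-identical stretches with 22 genes. These reads may therefore belong to other genes. Gm14139 had 3, 3, 5 and 9 counts against 2, 3, 0, 1 and 1, and 42.3% of its transcript was shared with Zfp345. Gm17655 had 2, 3, 2 and 4 counts against 0, 0, 0, 2 and 0. With these 3 genes added, the summed TMM-scaled level was 2.51-fold lower, against 2.50-fold for the 10 members alone. Of 36 listed genes of the KRAB silencing machinery, such as Trim28 and Setdb1, 0 were among the 311 genes, and they were not analysed here.

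The members lay on 5 chromosomes in the GENCODE M21 annotation. Zfp458, Zfp65 and Zfp825 were on chromosome 13, Zfp51, Zfp763 and Zfp81 on 17, Zfp551 and Zfp619 on 7, Zfp268 on 4 and Zfp867 on 11. Zfp268 was matched by its gene ID, since that release gives it another symbol. Among the 10 nearest coding genes of each member, 1 to 8 were C2H2 genes, and in 4 members at least 5 were, compared with 1.38% of all coding genes. The trait is not particular to the members, since Gm4767, Gm14139 and Gm17655 had 7, 5 and 6 such neighbours. Zfp458 and Zfp65 were separated by 18 coding genes, of which 15 were C2H2 genes, and Zfp763 and Zfp81 by 9, of which 3 were. None of the genes between these pairs was among the 311 genes, so nothing can be said here of the rest of the clusters.

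The promoters of these neighbours resembled each other. RefSeq promoters of GRCm38.p6, from 250 bases before to 50 after the start, were found for 8 members, and Zfp51 and Zfp268 had no entry. Of all pairs of these 8, Zfp458 with Zfp65 gave the highest alignment score, with 117 of 135 bases identical (86.7%), followed by Zfp763 with Zfp81, with 77 of 97 identical (79.4%). The aligned stretches are shown on the gene's strand, because they carry motifs common to each pair of lower genes. They lie at different distances from the start within each pair. Relative to the start they run from -245 to -111 in Zfp458 and -85 to 49 in Zfp65. In Zfp763 they run from -93 to 3 and in Zfp81 from -54 to 42. In the first pair capitals mark the reverse complement of CCGGAAG, the core of sites for ETS factors. In the second pair they mark a CCAAT box and, as its reverse complement, ATGGCGGC, the core of the motif of the factor YY1. The Zfp458 stretch is chr13:67269105-67269239, that of Zfp65 chr13:67729124-67729258, that of Zfp763 chr17:33033378-33033474 and that of Zfp81 chr17:33358836-33358932, all on the minus strand of GRCm38.p6.
Zfp458: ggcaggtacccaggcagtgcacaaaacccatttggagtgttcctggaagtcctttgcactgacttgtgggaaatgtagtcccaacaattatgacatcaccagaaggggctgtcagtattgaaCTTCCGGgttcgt
Zfp65: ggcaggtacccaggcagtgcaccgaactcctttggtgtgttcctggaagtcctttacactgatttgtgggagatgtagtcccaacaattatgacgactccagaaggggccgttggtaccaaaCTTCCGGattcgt
Zfp763: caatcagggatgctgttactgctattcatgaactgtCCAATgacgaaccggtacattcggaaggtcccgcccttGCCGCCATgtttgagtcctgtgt
Zfp81: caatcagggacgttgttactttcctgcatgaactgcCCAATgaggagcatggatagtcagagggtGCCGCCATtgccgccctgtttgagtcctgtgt

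Searched on both strands of the 300-base windows, CCGGAAG was in 3 of the 8 promoters (Zfp458, Zfp65 and Zfp825), against 8.86% of 32851 RefSeq promoters and 21.2% of 406 promoters of Zfp-named genes. ATGGCGGC was also in 3 (Zfp619, Zfp763 and Zfp81), against 2.24% and 4.68%. CCAAT was in 6 of the 8, against 37.4% and 47.5%. TATAAA was in none, against 13.6% and 6.90%. The CCGGAAG matches of Zfp458 and Zfp65 include those in their aligned stretches, as do the ATGGCGGC and CCAAT matches of Zfp763 and Zfp81. Such alike promoters are not separate cases, so these counts are not counts of independent promoters. The motifs were chosen after the promoters had been read, and a match of letters does not show binding.

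The members were GC-poor. Their longest transcripts had a median GC content of 39.6%, with a range of 35.7% in Zfp268 to 48.8% in Zfp551. The median was 40.3% in all Zfp-named genes with the KRAB signature, so the members lay near the value of that class. Over all Zfp-named genes the median was 43.8%. It was 43.8% in the 64 other tested lower genes and 55.2% in the 77 other tested higher genes. Direction and GC content moved together over these tested genes, and the part of GC content in the lower counts of the members was not tested.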

How the data were processed

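RNA of 9 RAW264.7 libraries was sequenced. The deposited table holds raw read counts per gene for 311 genes, and the total counts per library are sums over these genes. HISAT2 2.1.0, HTSeq 0.11.2, DESeq2 1.4.2, R 4.3.2 and FastQC 0.11.9 are named in the submitters' processing notes. The sources used here give no genome build, strand setting or rule of gene selection. Groups followed the library titles. With edgeR 4.0.16 (R 4.3.3), the table was filtered with filterByExpr (minimum count 10), scaled by TMM and tested with the two-sided quasi-likelihood test on group. P-values were adjusted by Benjamini-Hochberg over all tested genes and called under 0.05. Standard errors are the absolute log2 fold change over the square root of F. This step was also run on simulated counts in which part of the genes did not change. That run does not check the calls in a table of genes selected for their change. The labels call the libraries biological replicates but name no separate cultures, so spreads may be partly technical.

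Coding features came from GENCODE M21, with 295 of 311 IDs matched, and near-identical stretches from blastn 2.17.0. For each gene the coding transcript with the most C2H2 motifs was used. No protein table was used here, so motifs were counted in translated transcripts. The members, lists and tests were chosen with earlier results of these data known. Genes named in the text are the members, table genes with 3 or more C2H2 motifs or in the zinc finger and KRAB lists, the 3 genes most like the summed level, and genes with over 10% of a library. Gm46430, Gm10778 and the other sequence relatives were named after their values were seen. Same-numbered libraries did not deviate together (r of -0.21, 0.04, -0.11 and 0.01 for numbers 1 to 4), so the numbers were not taken as pairs. Alternatives were other scalings, no filter, DESeq2 1.42.0, a replicate block on numbers 1 to 4 and leaving out libraries.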

Additional observations from a re-analysis of the deposited data

Results flagged for a closer look

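Of 24 groups of libraries tested for a value far from the rest, 1 was found, and about 5% are expected by chance. Zfp458 had 13 counts in control replicate 4, against 7 to 8 in the other control libraries.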

How the results depend on the processing

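All 6 tested members kept a negative log2 fold change under each alternative. Of 102 re-estimates of single members, 98 stayed on the same side of the threshold, and 4 lost the call, all with column totals without the 4 largest genes. That setting left 2 members and 37 genes called lower, against 6 and 72, and a summed level of -0.74 in place of -1.32. The mean of the members' log2 values, which weighs sparse genes as much as the others, gave -1.83. This value also depends on the 1 CPM added before the log, since Zfp458 and Zfp268 had mimic libraries with 0 counts. Without the filter 311 genes were tested, and 141 were called lower, 10 members among them, and 170 higher. Here too a count of members called is no result about the members. DESeq2, also run on 311 genes, called 141 lower, 10 members among them, and 96 higher. Column totals left 30 higher genes, against 76, and 29.4% of calls higher, against 51.4%; the share was 67.5% without the 4 largest genes and 40.5% with DESeq2. Leaving out each library gave 6 to 8 members called, with 66 to 82 lower and 65 to 82 higher genes among 136 to 168 tested. The summed level was then -1.52 to -1.16. With the replicate number as a block, only numbers 1 to 4 were used, so let-7c-5p replicate 5 was left out. In that fit 6 members were called, with 69 genes lower and 71 higher among 143 tested. The summed level was -1.19 in that setting, and -1.16 when that library was left out without a block. For 0 of the 4 numbers was the same-numbered library the most alike. Selection of the table makes kept signs little evidence. Sequencing depth is unknown, and sums of 32 to 211 counts limit precision.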
